A study of Mus musculus with 4 samples.

Results

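The gene families Pramel, Obox, Khdc1, Tdpoz, Oog, Usp17l and Zscan4, multicopy families of the early mouse embryo, were examined in blastocysts edited in Ywhaz and in control blastocysts. Their copies were taken by symbol, as every row of the expression table whose name starts with one of these stems. This gave 93 copies among 22013 rows: 57 Pramel, 7 Obox, 3 Khdc1, 9 Tdpoz, 4 Oog, 5 Usp17l and 8 Zscan4 copies.

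These families arose by repeated gene duplication, sit in tandem clusters and are best known from oocytes and cleavage-stage embryos. Pramel genes encode leucine-rich-repeat proteins related to human PRAME, which acts as a substrate receptor of cullin 2 ubiquitin ligases, and Oog genes encode oocyte relatives of the same fold. Obox genes encode homeobox transcription factors of oocytes and early embryos, and Zscan4 genes encode zinc-finger proteins that mark the 2-cell stage and a rare state of embryonic stem cells. Tdpoz genes encode proteins with a TRAF-like and a BTB/POZ domain, as in the cullin 3 adaptor SPOP, Khdc1 genes encode KH-domain proteins, and Usp17l genes encode deubiquitinating enzymes.

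The knockout group comprised 2 libraries from C57BL/6 blastocysts that had received CRISPR-Cas9 against Ywhaz as zygotes. Ywhaz encodes 14-3-3 zeta, an adaptor that binds phosphorylated proteins. The control group comprised 2 libraries from wild-type C57BL/6 blastocysts, for which the labels name in different places Cas9 protein without a guide, a control guide RNA, and no treatment. Each library was made from a pool of 5 embryos, from superovulated females mated within the strain, cultured in vitro and carrying the same batch label. Library names of the knockout pools start with si, while the protocol describes editing. The labels do not tie pools of a group to different parents or collection days; the tests thus compare pools, whose spread can be of technical origin.

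Values are FPKM, fragment counts scaled by transcript length and library depth, so levels can be set side by side between genes. From the step between the lowest values, each library held an estimated 17200000 to 18400000 fragments. The libraries held 15212 to 15490 rows above 0. Ywhaz itself measured 32.7 and 98.2 FPKM in the knockout pools, against 143 and 123 FPKM in the control pools (log2 fold change −1.21 ± 0.39 SE, limma adjusted p = 0.305), so knockout pool 2 stood close to the controls. Trophectoderm markers (6 of 6 above 1 FPKM) summed to 225 and 349 FPKM in knockout pools and 236 and 186 FPKM in control pools. Epiblast markers (5 of 5) summed to 292 and 316 FPKM in knockout pools and 202 and 191 FPKM in control pools, without overlap, and primitive endoderm markers (3 of 4) to 34.4 and 37.4, against 42.8 and 37.3 FPKM. Gata6, at a mean of 34.8 FPKM, led that last sum and overlapped between groups, as did Pdgfra. The low Gata4 (0.42 and 0.573, against 1.14 and 1.24 FPKM) and Sox17 (0.521 and 0.523, against 1.13 and 2.03 FPKM) were lower in both knockout pools. Of 8 oocyte and zygote markers, Zp3 alone averaged above 1 FPKM, and none of 7 cumulus and granulosa markers did, with Cyp19a1 and Has2 at 0 in all 4 libraries. In such bulk samples, fewer cells of a type and less RNA per cell cannot be told apart.

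Of the 93 copies, 79 were above 0 FPKM in at least 1 library, 44 were above 0 in all 4 libraries, and 31 averaged above 1 FPKM over the 4 libraries. The other 14 copies were at 0 throughout. The Pramel family made up nearly all of the signal, with 51 of 57 copies above 0 and 22 above 1 mean FPKM. Obox had 5 of 7 copies above 0 and 2 above 1, Khdc1 3 of 3 on both counts, and Tdpoz 8 of 9 above 0 and 4 above 1. Oog and Usp17l had all of their copies above 0, 4 and 5, and Zscan4 3 of 8, but no copy of these 3 families averaged above 1 FPKM. Per library, 58 and 63 copies were above 0 in the knockout pools, against 66 and 59 in the control pools. Above 1 FPKM the counts were 27 and 29 in the knockout pools, against 31 and 29 in the control pools.

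Summed over all 93 copies, the families reached 3157 and 4004 FPKM in the knockout pools, against 3292 and 3444 FPKM in the control pools. These sums were 0.337% and 0.462% of all FPKM in the knockout pools, against 0.366% and 0.364% in the control pools. The means were 3580 ± 599 and 3368 ± 108 FPKM (SD, n = 2 each), a log2 ratio of 0.09, and the control values lay within the range of the knockout pools. The Pramel sum was 2764 and 3628 FPKM in knockout pools, against 3034 and 3178 FPKM in control pools (log2 ratio 0.04, and −0.05 with median-of-ratios scaling). Khdc1 summed to 275 and 192 FPKM in knockout pools, against 179 and 217 FPKM in control pools (log2 ratio 0.24), and these groups overlapped as well. Obox summed to 106.0 and 159 FPKM in knockout pools, against 69.0 and 39.0 FPKM in control pools (log2 ratio 1.29), so both knockout pools were above both control pools. Tdpoz summed to 10.5 and 25.2 FPKM, against 9.27 and 9.42 FPKM (log2 ratio 0.93), so both knockout pools were above both control pools, knockout pool 1 narrowly. Without knockout pool 2 the Tdpoz ratio was 0.17 and the Pramel ratio −0.17. Sums over chosen copies were given no test, and 2 against 2 libraries cannot reach an exact permutation p below 0.333.

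**Figure D1:**
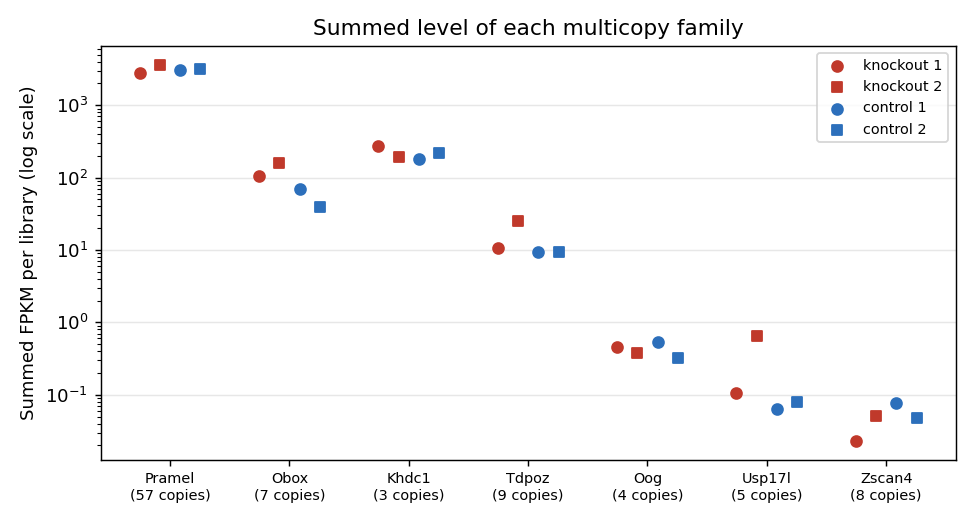
Summed FPKM of each family (vertical axis, log scale) in each library, with knockout pools in red and control pools in blue, and 1 point per library. Pramel lies between 2764 and 3628 FPKM, both knockout points of Obox and of Tdpoz lie above their control points, and Oog, Usp17l and Zscan4 stay under 1 FPKM.

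Each family was carried by few copies. Pramel5 alone supplied 18.1% of the Pramel signal and the 5 highest Pramel copies 65.4%. Obox6 supplied 98.6% of the Obox signal, Khdc1a 91.7% of the Khdc1 signal and Tdpoz2 53.6% of the Tdpoz signal. Among the Pramel copies 16 averaged above 10 FPKM and 9 above 100 FPKM, while 6 (Pramel3c, Pramel3d, Pramel3e, Pramel22, Pramel23 and Pramel32) were at 0 throughout. The copies nearest the line of 1 mean FPKM were Pramel17 at 1.14 and Obox8 at 1.15 above it, and Pramel29 at 0.831 and Pramel46 at 0.703 below it. Pramel29, on chromosome 4, measured 0.233 and 0.792 FPKM in knockout pools and 0.754 and 1.54 FPKM in control pools.

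Many of these copies share sequence, which limits how far fragments can be assigned to one of them. For each copy, the share of 100-nt windows of its longest transcript that occur in no other gene's transcripts was taken as its uniqueness, from GENCODE M21. The median was 62.2% over the 93 copies and 43.4% over the 31 copies above 1 mean FPKM. Of those 31 copies, 17 had under 50% unique windows, 4 had none, and 7 were fully unique: Obox6, Obox8, Khdc1b, Pramel6, Pramel7, Pramel12 and Pramel13. Pramel36 and Pramel49 have the same transcript sequence and the same 4 values in the table, as do Tdpoz5 and Tdpoz7. Pramel37 and Pramel50 also have identical transcripts, yet different values, 0 and 1.34 FPKM in knockout pools against 0.792 and 0 FPKM in control pools for Pramel37. Values of single copies without unique windows are therefore uncertain, and sums over copies that share at least 50% of their windows are given beside them.

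**Figure D2:**
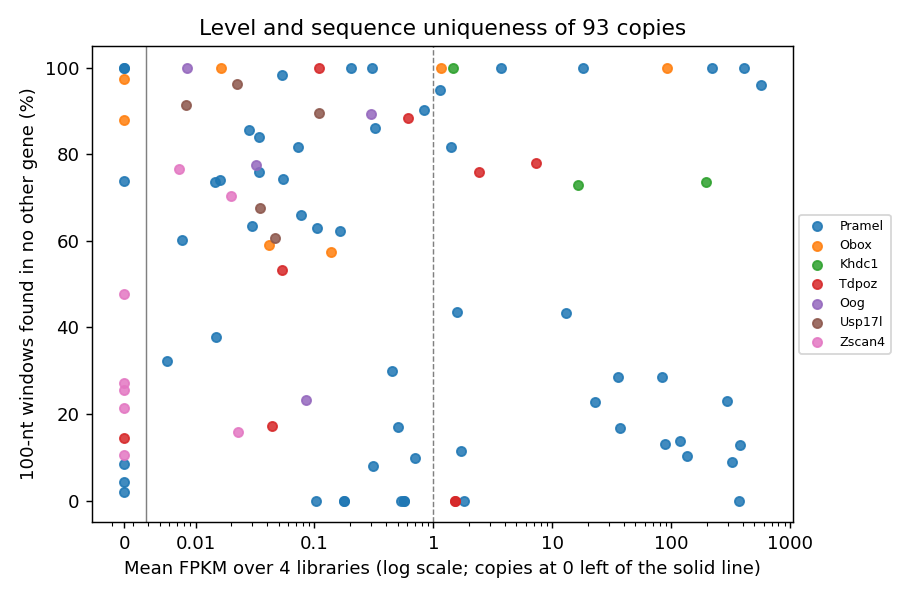
Mean FPKM over the 4 libraries (horizontal axis, log scale, with copies at 0 left of the solid line) against the share of 100-nt windows found in no other gene (vertical axis, percent), 1 point per copy, coloured by family. The dashed line marks 1 mean FPKM; to its right, Pramel copies split between a group under 50% unique windows and fully or nearly unique copies such as Pramel5, Pramel6 and Pramel7.

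The 31 copies with a mean of at least 1 FPKM were tested within a limma fit over all 9544 such genes, on log2(FPKM + 1). None passed an adjusted p of 0.05, against 7 of all genes, or 0.0733%. At an unadjusted limma p under 0.05 there were 5 copies, or 16.1%, against 11.1% of all genes. Of these, 3 had a positive log2 fold change (Obox6, Pramel11 and Tdpoz2), where 7.75% of all genes did, and 2 a negative one (Pramel43 and Pramel50), where 3.33% did. Obox8, Pramel11 and Pramel43 reached the mean of 1 FPKM only through the group where they are high. For 2 of these 5 copies, Pramel11 and Pramel43, the filter thus favoured a difference. Knockout values lay above control values without overlap in 5 of 31 copies (16.1%, against 27.4% of all genes) and below them in 4 (12.9%, against 14.0%), so 9 copies separated the groups (29.0%, against 41.4%). The median log2 fold change was 0.07 over the 31 copies and 0.05 over all genes tested. In 19 of the 31 copies it was positive (61.3%, against 56.0% of all genes), and in 19 copies it was smaller than its own standard error. These shares lie near those of all genes. In the authors' deposited table, 2 of the 93 copies had an FDR under 0.05, or 2.15%, against 0.241% of all rows: Obox6 and Pramel46.

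**Figure D3:**
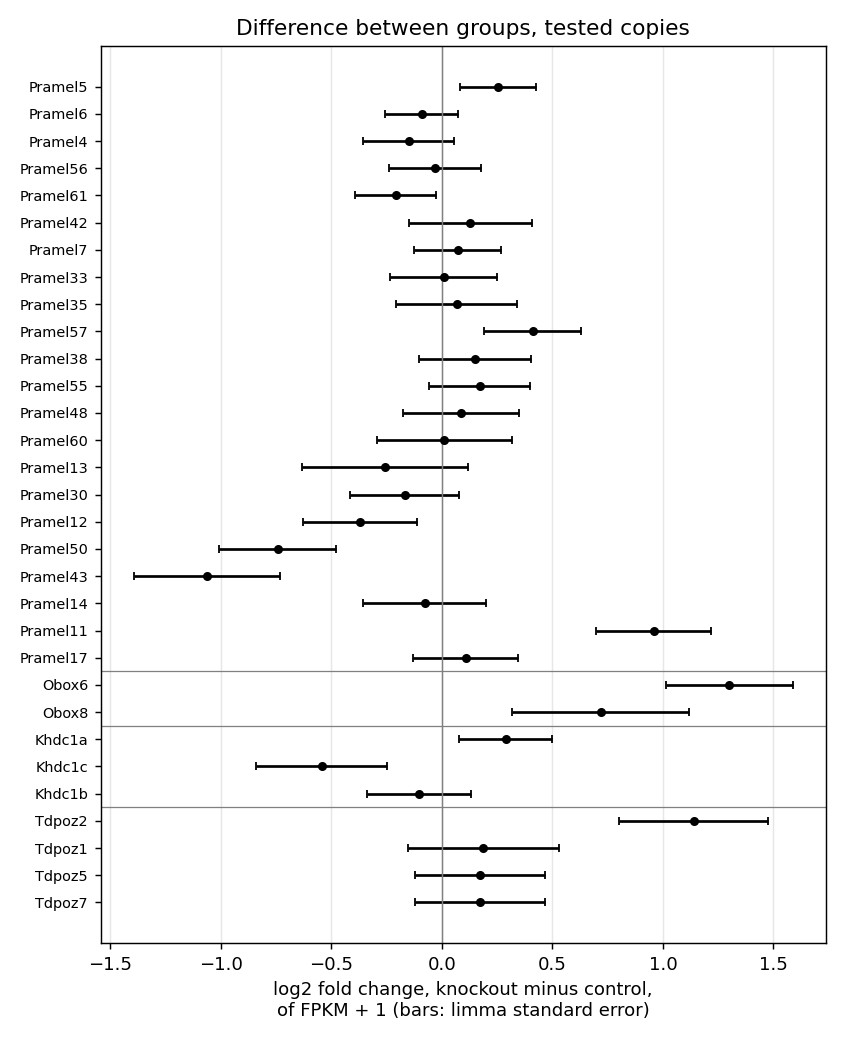
Log2 fold change of FPKM + 1, knockout minus control, of the 31 tested copies (points) with limma standard errors (bars), ordered by family and level. Most points lie within 0.3 of 0; Obox6, Tdpoz2 and Pramel11 lie to the right and Pramel43 and Pramel50 to the left.

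The Pramel copies of chromosome 5 form a cluster of 23 genes between 93481829 and 95804708 on GRCm38. All 23 were above 0 in at least 1 library and 11 averaged above 1 FPKM, with a median uniqueness of 13.1%. They fell into a group of 9 copies that averaged 23.1 to 370.3 FPKM and a group of 14 that averaged under 2 FPKM. RefSeq promoter sequences were at hand for 4 of the 9 and 7 of the 14 copies. Of the 93 copies 59 had an entry in RefSeq's promoter table (GRCm38.p6, 250 bases before to 50 after the start), and grouping by identity alone joined Pramel33, Pramel35, Pramel38 and Pramel48, all of the high group, and Pramel37, Pramel43, Pramel46, Pramel49 and Pramel50, all of the low group. The classes and copies printed below were picked after their levels were seen. Promoter likeness did not go with level throughout these families: Pramel7, Pramel14 and Pramel30 were joined at 75.1% to 97.3% identity and averaged 1.58 to 220.3 FPKM. For the abundant class, capitals mark a run of 56 bases shared by its 4 promoters.

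Pramel33, chr5:93536282-93536581 (minus strand): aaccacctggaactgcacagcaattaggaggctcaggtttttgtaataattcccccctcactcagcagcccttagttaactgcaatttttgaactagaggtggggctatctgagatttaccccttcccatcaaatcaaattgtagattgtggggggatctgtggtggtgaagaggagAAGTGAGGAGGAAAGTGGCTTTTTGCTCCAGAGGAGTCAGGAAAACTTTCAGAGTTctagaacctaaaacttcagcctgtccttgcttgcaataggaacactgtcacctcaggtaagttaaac
Pramel48, chr5:95456556-95456855 (plus strand): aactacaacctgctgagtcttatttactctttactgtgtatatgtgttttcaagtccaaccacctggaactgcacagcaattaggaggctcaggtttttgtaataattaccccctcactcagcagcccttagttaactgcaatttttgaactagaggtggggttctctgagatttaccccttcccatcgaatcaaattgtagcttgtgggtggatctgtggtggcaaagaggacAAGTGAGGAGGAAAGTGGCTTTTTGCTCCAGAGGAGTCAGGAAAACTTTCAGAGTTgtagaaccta

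For the rare class, capitals mark a run of 211 bases shared by its 5 promoters.

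Pramel43, chr5:94616291-94616590 (minus strand): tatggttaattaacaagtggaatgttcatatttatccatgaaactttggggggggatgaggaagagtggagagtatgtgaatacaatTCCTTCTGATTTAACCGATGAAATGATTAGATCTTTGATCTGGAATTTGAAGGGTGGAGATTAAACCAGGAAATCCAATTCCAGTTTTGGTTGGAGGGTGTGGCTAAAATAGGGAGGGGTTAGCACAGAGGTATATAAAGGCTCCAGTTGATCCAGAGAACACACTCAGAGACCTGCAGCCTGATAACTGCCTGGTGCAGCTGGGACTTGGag
Pramel46, chr5:95272706-95273005 (minus strand): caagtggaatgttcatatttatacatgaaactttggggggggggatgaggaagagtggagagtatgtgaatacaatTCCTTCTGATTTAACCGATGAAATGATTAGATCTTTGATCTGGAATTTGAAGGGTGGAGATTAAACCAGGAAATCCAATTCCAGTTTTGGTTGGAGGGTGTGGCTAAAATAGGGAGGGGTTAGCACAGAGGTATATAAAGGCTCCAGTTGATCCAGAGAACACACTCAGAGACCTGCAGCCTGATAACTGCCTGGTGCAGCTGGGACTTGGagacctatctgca

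Within the abundant class the promoters were 65.3% to 99.7% identical and the copies averaged 35.9 to 136.5 FPKM. Within the rare class they were 88.9% to 100% identical and the copies averaged 0.532 to 1.83 FPKM. Between the classes, the 20 pairs were 49.6% to 56.1% identical. The letters TATAAA, searched on both strands, occurred in all 5 promoters of the rare class, within the shared run. They occurred in none of the 4 of the abundant class. The rare class does not hold all 7 rare copies with a promoter at hand, and the rest are not reported separately. They occurred in 21 of the 59 promoters of these families (35.6%) and in 4473 of 32851 promoters in the table (13.6%). A match is a description of the letters and not a measured binding site.

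In 8 of the 9 abundant copies of chromosome 5 the groups overlapped, and no copy passed the threshold. Pramel56, the highest of them, measured 299.5 and 440 FPKM in knockout pools, against 388 and 354 FPKM in control pools (log2 fold change −0.03 ± 0.21 SE, limma adjusted p = 0.978). Pramel42 measured 213 and 423 FPKM, against 292 and 257 FPKM (0.13 ± 0.28 SE, limma adjusted p = 0.898). Pramel33 measured 105 and 172 FPKM in knockout pools and 149 and 120.2 FPKM in control pools (0.01 ± 0.24 SE). In each of these copies both control values lay between the 2 knockout values. Pramel57 was the exception among the 9, with 83.0 and 124 FPKM in knockout pools, against 78.5 and 73.5 FPKM in control pools, without overlap (0.41 ± 0.22 SE, limma adjusted p = 0.527). The other 5, Pramel35, Pramel38, Pramel55, Pramel48 and Pramel60, had log2 fold changes of 0.01 to 0.17, and their groups overlapped. With median-of-ratios scaling the log2 fold changes of Pramel33, Pramel35 and Pramel60 were negative, at −0.07, −0.01 and −0.07.

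Knockout pool 2 was the highest library for all 9 abundant copies, and knockout pool 1 the lowest for 8 of them. The value in knockout pool 2 was 1.47 to 2.04 times that in knockout pool 1. Among the other 22 tested copies 6 had this order of libraries, and among all genes tested 11.9% did. The order is one library's, since the 9 copies share sequence and libraries, and it is no comparison of the groups. The trophectoderm marker sum was also highest in knockout pool 2, at 349 FPKM, and its part in this order was not tested. Scaled to a common sum, 8 of the 9 copies kept the order, and with median-of-ratios scaling 7 did.

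Summed over copies that share sequence, Pramel33, Pramel35, Pramel38, Pramel42, Pramel56 and Pramel60 gave 784 and 1345 FPKM in knockout pools, against 1056 and 932 FPKM in control pools (1064 ± 396 and 994 ± 87.3 FPKM, SD, n = 2 each). Pramel48, Pramel55 and Pramel57 together gave 144 and 217 FPKM, against 151 and 139 FPKM. In both sums the groups overlapped and knockout pool 2 was the highest library.

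Among the 14 rare copies of chromosome 5, knockout values lay below control values without overlap in 5 (Pramel40, Pramel43, Pramel44, Pramel46 and Pramel50) and above them in 1 (Pramel34), and 8 overlapped. Of the 14, 2 were high enough to be tested, Pramel43 and Pramel50, and neither passed the limma threshold. Of all genes tested, 14.0% were lower and 27.4% higher without overlap, but those genes average at least 1 FPKM, unlike the untested copies. Pramel34 stood for about 1.2 and 4.3 fragments in knockout pools. Pramel40 stood for about 6.5 and 0 fragments in knockout pools, against 12.1 and 11.7 in control pools. Pramel43 (94612069 to 94616342, minus strand) measured 0.439 and 0.968 FPKM in knockout pools, against 3.92 and 1.51 FPKM in control pools (log2 fold change −1.06 ± 0.33 SE, limma adjusted p = 0.298). Pramel46 (95268493 to 95272768, minus strand) was listed at 0 in both knockout pools, against 2.08 and 0.734 FPKM in control pools, which is about 62.4 and 22.3 fragments at the estimated depths. It averaged under 1 FPKM and was not tested in limma, and the authors' deposited table gives it an FDR of 0.002. In that table a group at 0 is replaced by a small constant, so its fold change is not a measured size. Pramel50 measured 1.55 and 0.730 FPKM in knockout pools, against 2.44 and 2.59 FPKM in control pools (−0.74 ± 0.26 SE, limma adjusted p = 0.347).

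Pramel43 and Pramel46 have 11.4% and 9.83% unique windows, so their fragments may be assigned to other copies, and sums are given beside them. Pramel36, Pramel43, Pramel46 and Pramel49 together gave 1.68 and 1.62 FPKM in knockout pools, against 7.80 and 3.07 FPKM in control pools (1.65 ± 0.04 and 5.43 ± 3.35 FPKM, SD, n = 2 each). Pramel37 and Pramel50, whose transcripts are the same, gave 1.55 and 2.07 FPKM in knockout pools, against 3.23 and 2.59 FPKM in control pools (1.81 ± 0.37 and 2.91 ± 0.45 FPKM). Pramel41, Pramel53 and Pramel54 gave 0.939 and 0.681 FPKM in knockout pools, against 1.04 and 0.548 FPKM in control pools. The groups did not overlap in the sums led by Pramel36 and Pramel37 and overlapped in the last one. For the sum led by Pramel36 the control pools differed more from each other than the knockout mean differed from control pool 2. Without control pool 1 the log2 fold change of Pramel43 was −0.57, and without knockout pool 2 it was −1.29. Each of these fits leaves a lone library in 1 group. Pramel43 averaged 0.70 FPKM in knockout and 2.71 FPKM in control pools, so it entered the test only through the control values. Transcripts of A430089I19Rik, which hold most of the windows these copies share, were not analysed here.

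**Figure D4:**
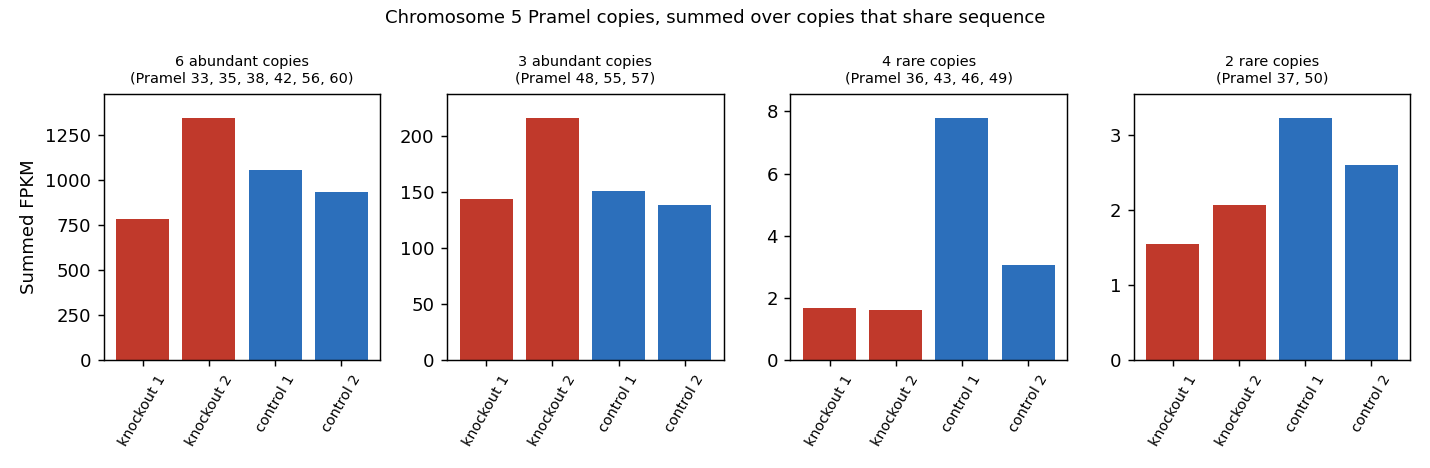
Summed FPKM (vertical axes, each from 0) of 4 sets of chromosome 5 Pramel copies that share sequence, 1 bar per library, knockout pools in red and control pools in blue. In both abundant sets the bar of knockout pool 2 is the highest and the groups overlap. In both rare sets shown, each knockout bar is lower than each control bar. The rare set of Pramel41, Pramel53 and Pramel54 is not shown, and its groups overlapped.

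The 26 Pramel copies of chromosome 4 and the 2 of chromosome 2 included the most abundant and the best resolved members. On chromosome 4, 23 copies were above 0 and 9 averaged above 1 FPKM. Pramel5 (chromosome 4, 144270633 to 144280488, minus strand), with 95.9% unique windows, was the highest copy of all families. It measured 568 and 672 FPKM in knockout pools, against 515 and 521 FPKM in control pools, without overlap (log2 fold change 0.25 ± 0.17 SE, limma adjusted p = 0.631). Pramel4 (144059126 to 144069327, plus strand) shares 86.9% of its windows with Pramel61. Pramel4 and Pramel61 summed to 638 and 680 FPKM in knockout pools, against 640 and 869 FPKM in control pools, and the groups overlapped. Pramel4 and Pramel5, both above 300 FPKM in every library, have promoters that are 83.4% identical, shown here with their shared run of 111 bases in capitals. Pramel17, at a mean of 1.14 FPKM, was joined to the same class, whose lowest identity was 62.1%.

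Pramel4, chr4:144058875-144059174 (plus strand): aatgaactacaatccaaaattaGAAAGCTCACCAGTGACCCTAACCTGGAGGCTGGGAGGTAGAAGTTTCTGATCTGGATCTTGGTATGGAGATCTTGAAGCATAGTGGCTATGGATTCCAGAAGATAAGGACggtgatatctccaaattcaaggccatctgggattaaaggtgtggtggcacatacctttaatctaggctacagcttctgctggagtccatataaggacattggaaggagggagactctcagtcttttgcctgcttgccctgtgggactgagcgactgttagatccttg
Pramel5, chr4:144280417-144280716 (minus strand): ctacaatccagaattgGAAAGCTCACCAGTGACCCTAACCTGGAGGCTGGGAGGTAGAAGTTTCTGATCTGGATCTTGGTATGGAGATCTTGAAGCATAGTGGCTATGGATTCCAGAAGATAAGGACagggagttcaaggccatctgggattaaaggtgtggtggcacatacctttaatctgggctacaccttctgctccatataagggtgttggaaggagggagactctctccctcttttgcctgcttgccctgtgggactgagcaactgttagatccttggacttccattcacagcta

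Both hold a CArG box, the binding motif of serum response factor, downstream of the shared run, searched on both strands. It occurred in no other of the 59 promoters of these families and in 535 of 32851 promoters in the table (1.63%). Neither promoter holds TATAAA, but the match in both, ccatataagg, contains the near letters TATAAG. These promoters are 83.4% identical, so their matches are not separate finds. Here too a match is a description of the letters and not a measured binding site.

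Pramel6 and Pramel7 of chromosome 2 are known in mouse embryonic stem cells for sustaining the naive pluripotent state, and PRAMEL7 for directing the DNA methylation cofactor UHRF1 to degradation through cullin 2. Both are fully unique in sequence. Pramel6 (87506565 to 87510872, plus strand) measured 403 and 398 FPKM in knockout pools, against 411 and 443 FPKM in control pools (log2 fold change −0.09 ± 0.17 SE, limma adjusted p = 0.877). Pramel7 (87489087 to 87497093, minus strand) measured 194 and 259 FPKM, against 199 and 229 FPKM (0.07 ± 0.20 SE, limma adjusted p = 0.928). For Pramel6 the knockout values lay just under the control values without overlap, by less than the standard error, and for Pramel7 they enclosed them. Uhrf1 itself measured 3.05 and 4.46 FPKM in knockout pools, against 5.46 and 4.64 FPKM in control pools (−0.36 ± 0.26 SE, limma adjusted p = 0.663).

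Among the lower copies of chromosome 4, Pramel11 was the one with a larger difference. It has 81.6% unique windows and measured 1.56 and 2.81 FPKM in knockout pools, against 0.645 and 0.572 FPKM in control pools, without overlap (log2 fold change 0.96 ± 0.26 SE, limma adjusted p = 0.266). The FDR in the authors' deposited table was 0.276, for a log2 fold change of 1.84. Its means were 2.18 FPKM in knockout and 0.609 FPKM in control pools, so it entered the test only through the knockout values. Without knockout pool 1, which leaves a lone knockout library, its log2 fold change was 1.24 (limma adjusted p = 0.0172). Pramel12, fully unique, measured 2.62 and 3.64 FPKM in knockout pools, against 4.04 and 4.57 FPKM in control pools, without overlap (−0.37 ± 0.26 SE, limma adjusted p = 0.647). Pramel13, also unique, measured 9.67 and 24.6 FPKM, against 23.2 and 15.1 FPKM, and its groups overlapped. Pramel14, Pramel17 and Pramel30 had log2 fold changes of −0.17 to 0.11, each smaller than its standard error, and overlapping groups.

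**Figure D5:**
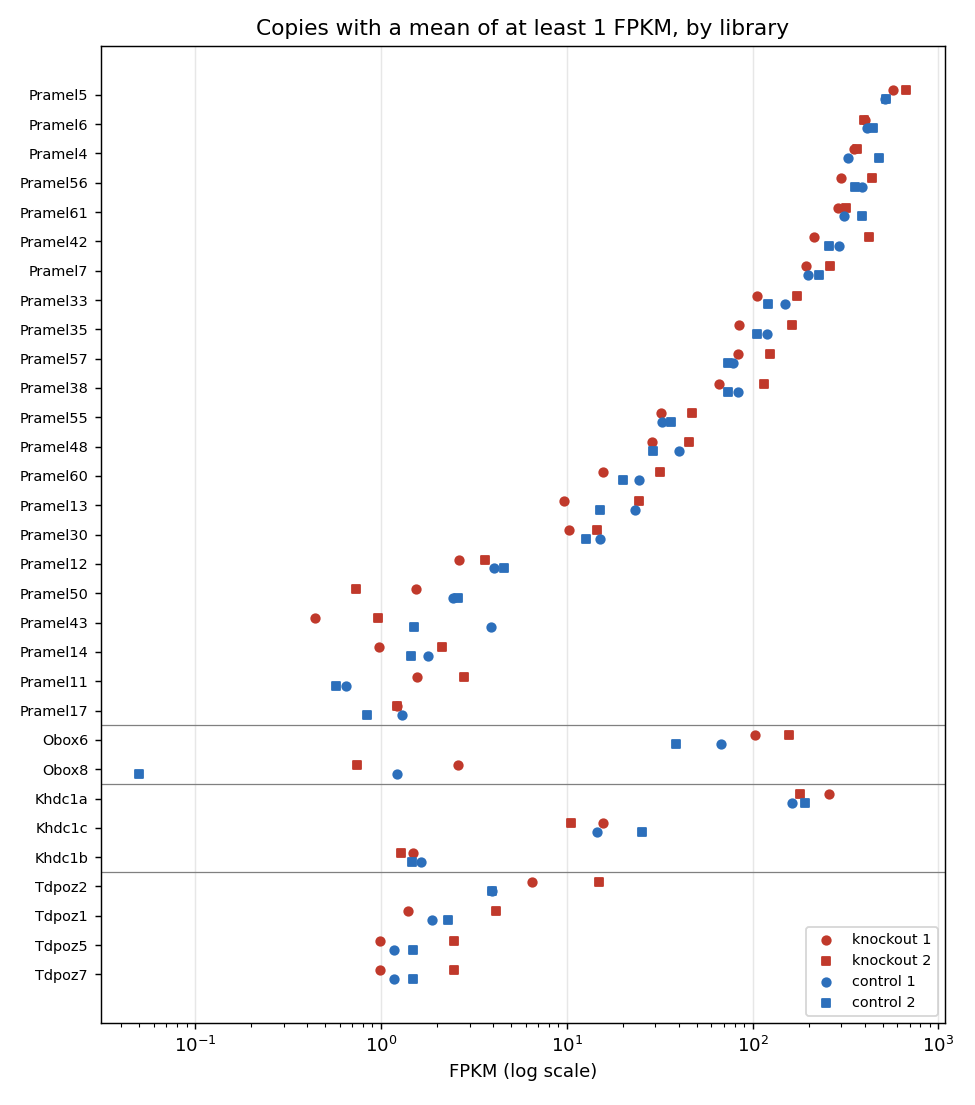
FPKM (horizontal axis, log scale) of the 31 tested copies in each library, knockout pools in red and control pools in blue, circles for pool 1 and squares for pool 2. Levels run from the 0.050 FPKM of Obox8 in control pool 2 to the 672 FPKM of Pramel5 in knockout pool 2, and the red points of Obox6 and Tdpoz2 both lie to the right of the blue ones.

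Obox6 was the one abundant homeobox copy and the copy with the largest fold change of the 31. It lies at 15833241 to 15839678 of chromosome 7 (GRCm38, minus strand), and none of its 100-nt windows occurs in another gene's transcripts in GENCODE M21. Obox6 measured 103 and 158 FPKM in knockout pools, against 67.8 and 38.6 FPKM in control pools. Both knockout pools stood above both control pools. The log2 fold change was 1.3 ± 0.29 SE, with an unadjusted limma p of 0.000989 and an adjusted p of 0.193, so it did not pass over all genes. The authors' deposited table gives Obox6 an FDR of 0.0120, with a log2 fold change of 1.29. Leaving out 1 library at a time gave log2 fold changes of 0.90 to 1.70, each from a fit with a lone library in 1 group. The lowest was that without control pool 2. The epiblast marker sum was also higher in both knockout pools, at 292 and 316 FPKM, against 202 and 191 FPKM. Of its 5 genes, Pou5f1 (179 and 201, against 115 and 121 FPKM) and Nanog (82.8 and 80.2, against 55.8 and 55.6 FPKM) separated the groups, while Sox2, Klf2 and Esrrb overlapped. The part of these markers in the Obox6 difference was not tested.

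The remaining Obox copies were low. Obox8, also unique in sequence, measured 2.61 and 0.744 FPKM in knockout pools, against 1.21 and 0.050 FPKM in control pools, and its groups overlapped (log2 fold change 0.72 ± 0.40 SE, limma adjusted p = 0.550). It averaged above 1 FPKM in the knockout pools only and entered the test through them. Without knockout pool 2, which leaves a lone knockout library, its log2 fold change was 1.24 (limma adjusted p = 0.0313). Obox2 measured 0.204 and 0.085 FPKM in knockout pools, against 0.075 and 0.183 FPKM in control pools. Obox1 was at 0 in 3 libraries and at 0.166 FPKM in control pool 2. Obox3 and Obox7 were at 0 in all 4 libraries. Obox1, Obox2, Obox3, Obox5 and Obox7 are the copies best known from oocytes, zygotes and the 2-cell stage in mice.

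The Khdc1 cluster lies on chromosome 1 between 21349641 and 21386373, and its 3 copies were all above 1 FPKM. Khdc1a measured 258 and 179.8 FPKM in knockout pools, against 163 and 191 FPKM in control pools, with overlap (log2 fold change 0.29 ± 0.21 SE, limma adjusted p = 0.663). Khdc1c measured 15.6 and 10.5 FPKM, against 14.5 and 25.3 FPKM (−0.54 ± 0.30 SE, limma adjusted p = 0.541). Khdc1b measured 1.48 and 1.28 FPKM, against 1.64 and 1.47 FPKM (−0.10 ± 0.23 SE, limma adjusted p = 0.906). The order of levels, Khdc1a over Khdc1c over Khdc1b, was the same in all 4 libraries, and no copy separated the groups. Khdc1a shares 26.5% of its windows with Khdc1c.

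Tdpoz2 (chromosome 3, 93651542 to 93652686, minus strand) was the highest of the 9 Tdpoz copies, which all lie on chromosome 3. It measured 6.49 and 14.8 FPKM in knockout pools, against 3.95 and 3.94 FPKM in control pools. Both knockout pools were above both control pools, and the knockout pools differed from each other by more than either control pool differed from knockout pool 1. The log2 fold change was 1.14 ± 0.34 SE (limma adjusted p = 0.278), and the authors' deposited table gives 1.43 with an FDR of 0.209. Without knockout pool 1 it was 1.68, and without knockout pool 2 it was 0.60, each from a fit with a lone knockout library. Gm5773, which is outside the families by name and shares 18.1% of the windows of Tdpoz2, measured 0.414 and 2.63 FPKM in knockout pools, against 0.119 and 0.16 FPKM in control pools, with knockout pool 2 again the highest.

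Tdpoz1 measured 1.40 and 4.14 FPKM in knockout pools, against 1.89 and 2.30 FPKM in control pools (log2 fold change 0.19 ± 0.34 SE, limma adjusted p = 0.877). Tdpoz5 and Tdpoz7, which cannot be separated by sequence, were each listed at 0.988 and 2.46 FPKM in knockout pools, against 1.17 and 1.49 FPKM in control pools (0.17 ± 0.29 SE). In these 3 copies the knockout pools enclosed the control pools, with knockout pool 2 the highest. Of the lower copies, Tdpoz4 measured 0.412 and 0.987 FPKM in knockout pools, against 0.848 and 0.211 FPKM in control pools. Tdpoz8 measured 0.176 and 0.258 FPKM in knockout pools and was listed at 0 in both control pools, values that stand for about 5.1 and 7.1 fragments. Tdpoz9-ps1 was at 0 throughout.

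The 3 remaining families were barely detected. Oog summed to 0.464 and 0.376 FPKM in knockout pools, against 0.533 and 0.318 FPKM in control pools. Its highest copy, Oog3, measured 0.383 and 0.30 FPKM in knockout pools, against 0.316 and 0.189 FPKM in control pools, and the next, Oog1, 0.081 and 0.042 FPKM, against 0.217 and 0 FPKM. All Oog sums stand for about 9.9 to 18.5 fragments per library, and the groups overlapped.

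Usp17l summed to 0.105 and 0.642 FPKM in knockout pools, against 0.064 and 0.079 FPKM in control pools. Knockout pool 2 stood apart from the other 3 libraries. Usp17lb, the highest copy, was at 0 and 0.398 FPKM in knockout pools, against 0.042 and 0 FPKM in control pools, and Usp17ld was above 0 in knockout pool 2 alone, at 0.188 FPKM. At these levels a library holds about 2 to 17.1 fragments over the whole family.

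Zscan4, the marker family of the 2-cell programme, summed to 0.023 and 0.051 FPKM in knockout pools, against 0.077 and 0.048 FPKM in control pools, which is about 0.6 to 2.6 fragments per library. These values lie under the floor of 3 counts, so a difference between groups was not detectable at this depth. Zscan4e, the highest copy, was listed at 0.022 to 0.024 FPKM in all 4 libraries, about 0.6 fragments. Zscan4d was at 0 and 0.027 FPKM in knockout pools, against 0.026 and 0.026 FPKM in control pools, about 1 fragment wherever it was above 0. Zscan4b, Zscan4c, Zscan4f, Zscan4-ps2 and Zscan4-ps3 were at 0 in all 4 libraries. The Zscan4 copies have a median of 26.3% unique windows.

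Regulators and companions of these families were examined in 6 lists, and none of their members passed the limma threshold over all genes tested. Of 10 tested activators of the 2-cell programme, 9 had a positive and 1 a negative log2 fold change, with a median of 0.21, against 0.05 over all genes, of which 56.0% were positive. Duxf3, the homeobox factor at the head of this programme, was at 0 in all 4 libraries. Zscan5b, a zinc-finger protein of early embryos, measured 5.75 and 5.78 FPKM in knockout pools, against 3.01 and 3.11 FPKM in control pools (log2 fold change 0.74 ± 0.24 SE, limma adjusted p = 0.314). Nr5a2, a nuclear receptor of early embryos, measured 13.6 and 17.2 FPKM, against 10.97 and 9.43 FPKM (limma adjusted p = 0.437), and Nfya, a CCAAT-binding factor subunit, 3.62 and 3.22 FPKM, against 2.30 and 1.72 FPKM (limma adjusted p = 0.446). These 3 were the activators with an unadjusted limma p under 0.05 (3 of 10, where 7.75% of all genes had such a p with a positive sign). Without overlap, 6 of the 10 were higher and none lower, against 27.4% and 14.0% of all genes.

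Of 18 tested repressors of that programme, 14 had a positive and 4 a negative log2 fold change, with a median of 0.26, and 5 had an unadjusted limma p under 0.05, all positive (7.75% of all genes were so, and 3.33% with a negative sign). Ncl, which encodes nucleolin, a nucleolar protein that acts with LINE1 RNA on Dux in mouse cells, measured 56.4 and 56.4 FPKM in knockout pools, against 31.1 and 34.04 FPKM in control pools (log2 fold change 0.77 ± 0.19 SE, limma adjusted p = 0.228). Morc3, a chromatin ATPase that silences retroviral elements, measured 9.45 and 12.2 FPKM, against 5.61 and 4.65 FPKM (limma adjusted p = 0.259). Hdac1, a histone deacetylase, measured 155 and 151 FPKM, against 99.98 and 109 FPKM (limma adjusted p = 0.305). Without overlap, 8 of the 18 repressors were higher and 2 lower, against 27.4% and 14.0% of all genes. Neither list was tested against other genes, of which 56.0% were positive.

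Of 24 other 2-cell transcripts listed, 15 were in the table by symbol and 8 were tested, all 8 with a positive log2 fold change, as had 56.0% of all genes, and a median of 0.42. Sp110, a nuclear body protein, measured 10.4 and 11.02 FPKM in knockout pools, against 4.502 and 4.09 FPKM in control pools (log2 fold change 1.14 ± 0.24 SE, limma adjusted p = 0.173). The authors' deposited table gives Sp110 an FDR of 0.0175, with a log2 fold change of 1.32. Tmem92 measured 7.94 and 6.13 FPKM, against 4.16 and 4.30 FPKM (limma adjusted p = 0.414), and Eif1ad7 4.79 and 1.69 FPKM, against 2.14 and 0.374 FPKM, with overlap (limma adjusted p = 0.466). Zfp352, one of the most specific transcripts of that stage, was at 0 in both knockout pools and at 0.130 and 0 FPKM in control pools.

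Among oocyte KH-domain genes and the subcortical maternal complex, 3 of 6 tested members had a positive log2 fold change, with a median of 0.06. Khdc3, an RNA-binding member of that complex, measured 789 and 768 FPKM in knockout pools, against 587 and 487 FPKM in control pools (log2 fold change 0.54 ± 0.17 SE, limma adjusted p = 0.305), while Ooep and Padi6 overlapped between groups. Among 10 partners of cullin 2 and cullin 3 ligases, 8 had a positive log2 fold change, with a median of 0.24. Spop, the MATH and BTB adaptor of cullin 3, measured 16.5 and 18.0 FPKM, against 10.2 and 8.04 FPKM (0.86 ± 0.23 SE, limma adjusted p = 0.266). Lrr1, a leucine-rich-repeat receptor of cullin 2, measured 420.0 and 401 FPKM, against 297 and 301 FPKM (limma adjusted p = 0.353), and Spopl, a relative of Spop, 3.56 and 4.15 FPKM, against 2.66 and 1.91 FPKM (limma adjusted p = 0.446). Of 6 tested homeobox genes outside Obox, 5 had a positive log2 fold change, with a median of 0.14. Over all genes tested, 56.0% were positive. Esx1 and Rhox6 averaged above 1 FPKM in the knockout pools only and entered the test through them, so a positive sign was favoured. Esx1, a homeobox gene of trophoblast, measured 2.51 and 0.678 FPKM in knockout pools, against 0.50 and 0.379 FPKM in control pools (limma adjusted p = 0.433), and the Rhox genes Rhox9 and Rhox5 overlapped between groups.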

How the data were processed

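Poly(A) RNA-seq of 4 libraries was taken as deposited, 2 of Ywhaz-knockout and 2 of control blastocyst pools of 5 embryos. The authors' table holds 1 FPKM value per gene and library, per the file headers, and no counts. Per the file headers, the authors also deposited a log2 fold change, a p-value and an FDR for each gene, with no tool named. The submitters' processing notes list the build GRCm39 and, with no role, DESeq2, RSEM, StringTie 1.3.1, HISAT2 2.1.0, Bowtie2 2.2.8 and fastp 0.18.0. No source used here gives how fragments were divided among near-identical copies or whether strand was used.

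The 9544 genes averaging 1 FPKM or more were fitted with limma 3.58.1 (R 4.3.3, intensity trend) on log2(FPKM + 1), with the group as the only term (2 residual degrees of freedom), and p-values were adjusted over all of them by Benjamini-Hochberg, with a threshold of 0.05. Fold changes are knockout minus control on that scale, which understates changes of low genes, while means ± SD are of FPKM. The fit was tested on simulated data with known changes.

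Library depth was inferred from steps between low FPKM values in single-transcript genes with an assumed fragment of 200 nt, where 74.9% to 77.6% of values lay within 0.1 of a whole fragment; fragment numbers are therefore approximate and cover counting error only. All 93 copies matched GENCODE M21 (GRCm38) by identifier. Positions are of GRCm38, not of the authors' build, and promoter sequences are RefSeq's on GRCm38.p6.

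The copies and lists were chosen with earlier results of these data known. Copies named were all those of at least 1 mean FPKM, the 2 of each family just below it, the highest of families with none above it, and any past the limma or the authors' threshold. From each list, members past the limma threshold and the 3 smallest limma p among those tested were named. Outside that rule, Uhrf1, Duxf3, Zfp352, Gm5773, A430089I19Rik, copies at 0 and copies named for shared sequence were named after their values were seen. Alternatives covered the pseudocount, the filter, 3 scalings, replicate blocks and leaving out each library.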

Additional observations from a re-analysis of the deposited data

How the results depend on the processing

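No copy passed the limma threshold with a pseudocount of 0.1, without a filter or with a filter of 5 FPKM. None passed with TPM, median-of-ratios or quantile scaling. Without a filter, 9 of 79 copies had an unadjusted limma p under 0.05, against 1400 of 17155 genes. Over all genes limma called 7, against 5 with a pseudocount of 0.1, 6 with a filter of 5 FPKM, 13 with TPM scaling, 4 with median-of-ratios scaling, and 0 without a filter or with quantile scaling (1400 and 1249 at an unadjusted p under 0.05). Leaving out 1 library at a time called 15 to 205 genes and 0 to 3 of the copies, but there 1 group has a lone library, which is assumed to vary like the other group. Family log2 ratios then ranged from −0.17 to 0.22 for Pramel and 0.94 to 1.76 for Obox. They ranged from −0.05 to 0.47 for Khdc1 and 0.17 to 1.43 for Tdpoz. The lowest Pramel and Tdpoz values were those without knockout pool 2. Over control pools alone, 1 Obox copy averaged above 1 FPKM; the other counts of copies above 1 were within 1 of those reported.

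Some log2 fold changes turned sign. With TPM scaling Pramel56 was at 0.00415, with median-of-ratios scaling Pramel7 at −0.00705, Pramel33 at −0.0702, Pramel35 at −0.0120 and Pramel60 at −0.0656, and with quantile scaling Pramel60 at −0.0470. Leaving out 1 library gave a log2 fold change of −0.42 to 0.12 for Pramel4, −0.31 to 0.25 for Pramel56, −0.36 to 0.62 for Pramel42, −0.14 to 0.28 for Pramel7, −0.35 to 0.36 for Pramel33, −0.40 to 0.53 for Pramel35, −0.24 to 0.54 for Pramel38, −0.10 to 0.44 for Pramel55, −0.24 to 0.41 for Pramel48, −0.48 to 0.50 for Pramel60, −0.89 to 0.38 for Pramel13, −0.39 to 0.0576 for Pramel30, −0.41 to 0.26 for Pramel14, −0.0537 to 0.27 for Pramel17, −0.36 to 0.74 for Tdpoz1, −0.23 to 0.57 for Tdpoz5 and for Tdpoz7, −1.10 to 0.29 for Rhox9 and −0.28 to 0.70 for Rhox5. The cause of these changes was not tested.

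The labels number the libraries, and same-numbered deviations from the group means correlated at −0.244 across genes. With a single difference in each group, this cannot show whether equal numbers share a collection day or parents. With the replicate block limma called 38 of 9544 genes and 1 of 31 copies, Obox6 (log2 fold change 1.3, limma adjusted p = 0.000592), and Ywhaz. With the crossed pairing, added after the data were seen, it called 475 of 9544 genes and 4 of 31 copies. Copies under 1 mean FPKM were not tested in the main fit, and many rest on few fragments, so differences among those may go undetected. Pramel46 stood for about 62.4 and 22.3 fragments in control pools and 0 in knockout pools. It has 9.83% unique windows, so these values, the zeros among them, may depend on how shared fragments were assigned. The authors' deposited table gives it an FDR of 0.002.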
